A study of Mus musculus with 4 samples.

Results

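The genes that carry the insulin and insulin-like growth factor 1 (IGF1) signal from the cell surface to the kinase Akt were followed in the RNA of CA1 neurons that had been active during sleep deprivation. They are 9 of the 28193 genes in the deposited table, taken by symbol: the receptors Insr and Igf1r, the receptor substrates Irs1 and Irs2, the PI3K regulatory subunits Pik3r1, Pik3r2 and Pik3r3, and the kinases Akt1 and Akt2. All 9 are annotated as protein-coding, had over 5 counts in every library and were tested. In 7 of them both sleep-deprived (SD) libraries lay above both non-sleep-deprived (NSD) libraries, an order found in 22% of all genes tested and 26.5% of the protein-coding genes. The gaps were small, and the highest log2 fold change was 0.29, in Pik3r3. None of the 9 was called at the study's thresholds by the edgeR test without the batch number, while Pik3r3 was called higher in SD when the batch was a term of the fit (2.99% of all genes called higher and 8.47% lower), and DESeq2 called Irs2, Pik3r3 and Akt2 higher (2.99% and 5.79%).

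The libraries hold ribosome-bound RNA from male C57BL/6J mice aged 3 to 5 months. Mice of both groups received viral vectors in which the c-Fos promoter drives a tamoxifen-dependent Cre and Cre switches on an HA-tagged Rpl22, which is built into the large subunit of the ribosome, so that the tag marks cells in which Fos was induced while 4-hydroxytamoxifen was present. The labels give the genotype as cFos-Cre:Ribotag and the tissue as dorsal hippocampus, where the study's methods give microdissected CA1. Mice of both groups were sleep deprived for 5 h on day 0, when the tag was placed. On day 7 gentle handling kept the SD mice awake for another 5 h, the NSD mice were left undisturbed, and tissue was taken from both at ZT 5 (hours after lights on). Each library is a pool of the CA1 of 5 mice, each group has 2 libraries, and each of the 2 batches in the labels holds 1 NSD and 1 SD library.

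Insulin and IGF1 bind related receptor tyrosine kinases. The active receptors phosphorylate the IRS proteins, which act as docking platforms for the regulatory subunits of PI3K. These subunits hold and recruit the catalytic subunit, whose lipid product brings Akt to the membrane, where it is phosphorylated and goes on to act on glycogen synthase kinase, FoxO transcription factors and mTOR complexes. In the hippocampus the pathway is known for roles in synaptic plasticity, protein synthesis and neuronal survival.

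On the genome build GRCm39 the deposited table places Insr at chr8:3172061-3329617 and Igf1r at chr7:67602575-67883416. Irs1 lies at chr1:82210822-82269137 and Irs2 at chr8:11034681-11058458. Pik3r1 lies at chr13:101817071-101904725, Pik3r2 at chr8:71220820-71229357 and Pik3r3 at chr4:116078815-116160253. Akt1 lies at chr12:112620255-112641318 and Akt2 at chr7:27290977-27340251. Igf1r, Pik3r3 and Akt2 are on the plus strand and the other members on the minus strand.

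Promoter windows of 300 bases, from 250 bases before a RefSeq start to 50 after it, were found for 8 of the 9 members in a RefSeq table of build GRCm38.p6 and placed on GRCm39 by exact match. The stretches below show the motifs that members shared or that were found in a single member, in capitals, each 5′ to 3′ on the gene's own strand. Irs1 and Irs2 both hold the E-box CACGTG, a site that many basic helix-loop-helix factors bind, inside the same 10 bases. The Akt1 stretch holds TGTTTAC, a FoxO motif. The Pik3r3 and Akt2 stretches hold TGACG, the core of the cyclic AMP response element, which 3 more members hold and which is shown for these as examples.
Irs1, chr1:82269258-82269287: cagaggctccGTCACGTGTTttgctcctct
Irs2, chr8:11058956-11058985: gtaacgcagaGTCACGTGTTgttttgctct
Akt1, chr12:112641461-112641490: atctaccctctTGTTTACactcctggtgaa
Pik3r3, chr4:116078596-116078625: agtctcgcaggcTGACGgggagagttaaaa
Akt2, chr7:27290921-27290950: aaaaagttaacgTGACGggtgcctaaagta

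In the GENCODE annotation the Irs1, Irs2 and Pik3r3 stretches lie in an annotated untranslated exon at the upstream end of the gene. The Akt2 stretch lies in an untranslated exon further inside the gene, which GENCODE starts at 27284378. All 5 stretches lie outside the gene spans of the deposited table. The Akt1 stretch lies in an intron of Akt1 in that annotation and in an exon of Gm30150 on the other strand. The E-box begins 115 bases before the RefSeq start of Irs1 and 44 before that of Irs2. It was found, searched on both strands, in 8.09% of the 27025 genes with a window and in no other member with one. The 10-base run GTCACGTGTT around it was noticed after the windows had been compared and is held by 25 genes in all, 0.0925% of them. Another run of the same length, TGTTTTGCTC, is also common to both windows. The FoxO motif was found in 4.05% of genes. TGACG was found in 5 members (Irs1, where it overlaps the E-box, Pik3r1, Pik3r2, Pik3r3 and Akt2) and in 23% of all genes. The full element TGACGTCA (2.03% of genes) and the Egr motif GCGTGGGCG (0.707%) were in none of the 8 members. These are matches of letters, and binding was not measured.

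The table holds an estimated count for each gene, and these add up to 162943863 and 153511705 in NSD 1 and NSD 2 and to 181914848 and 195910235 in SD 1 and SD 2. Arc, a gene induced by neuronal activity, was called higher in SD (log2 fold change 0.91, edgeR adjusted p = 0.0328), while Fos, at 271.1 and 513.3 CPM (counts per 1000000 counts of the library) in NSD and 336.0 and 375.1 CPM in SD, overlapped between the groups. Markers of CA1 pyramidal neurons summed to 6350 and 6674 CPM in NSD and 6111 and 6580 CPM in SD. Of its 8 genes edgeR called 0, with 4 at an unadjusted p under 0.05, and the fit with the batch block called 4 lower in SD, as did DESeq2, where these fits called 8.47% and 5.79% of all genes lower. Markers of other cells were present too, with 775.3 to 882.8 CPM summed over 8 interneuron genes, 1581 to 1910 CPM over 8 oligodendrocyte-lineage genes, 480.7 to 534.0 CPM over 8 astrocyte genes, 78.9 to 102.0 CPM over 8 microglial genes, 102.9 to 109.9 CPM over 6 CA2 and CA3 genes and 72.4 to 98.03 CPM over 6 dentate granule genes. The dentate granule sum was lower in SD, at 98.03 and 89.2 CPM in NSD against 72.4 and 80.6 CPM in SD. Of these 6 genes 4 had a log2 fold change below 0 and 2 above. EdgeR called 0 of the 6, and the block fit and DESeq2 each called 1 lower (8.47% and 5.79% of all genes). All 10 markers of endothelial and mural cells had a log2 fold change below 0, where 47.2% of all genes tested were above 0. Of these 10, 8 had both SD libraries below both NSD libraries (27.5% of all genes). EdgeR called none of the 10, with 8 at an unadjusted p under 0.05 (12.2% of all genes lower), the block fit called 7 lower and DESeq2 4. Their summed level was 61.9 and 81.1 CPM in NSD and 50.7 and 34.8 CPM in SD, with none at 0. Genes in Ensembl's class TEC, transcripts still to be verified by experiment, took 0.274% and 0.210% of counts in NSD and 0.157% and 0.118% in SD. The part of these differences in the members' values was not tested. In libraries of this kind fewer cells of a type and less RNA per cell cannot be told apart.

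Each member was deeply counted, from 8502 counts for Pik3r3 in NSD library 2 to 36099 for Irs2 in SD library 2, so that counting error was at most 1.08% of a library's value. Values between libraries are given in CPM scaled by edgeR's TMM factors, and a call required a fold change over 1.2 (0.263 on the log2 scale) together with an adjusted p under 0.05. The plot of CPM by library shows the 9 members on these values.

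**Figure D1:**
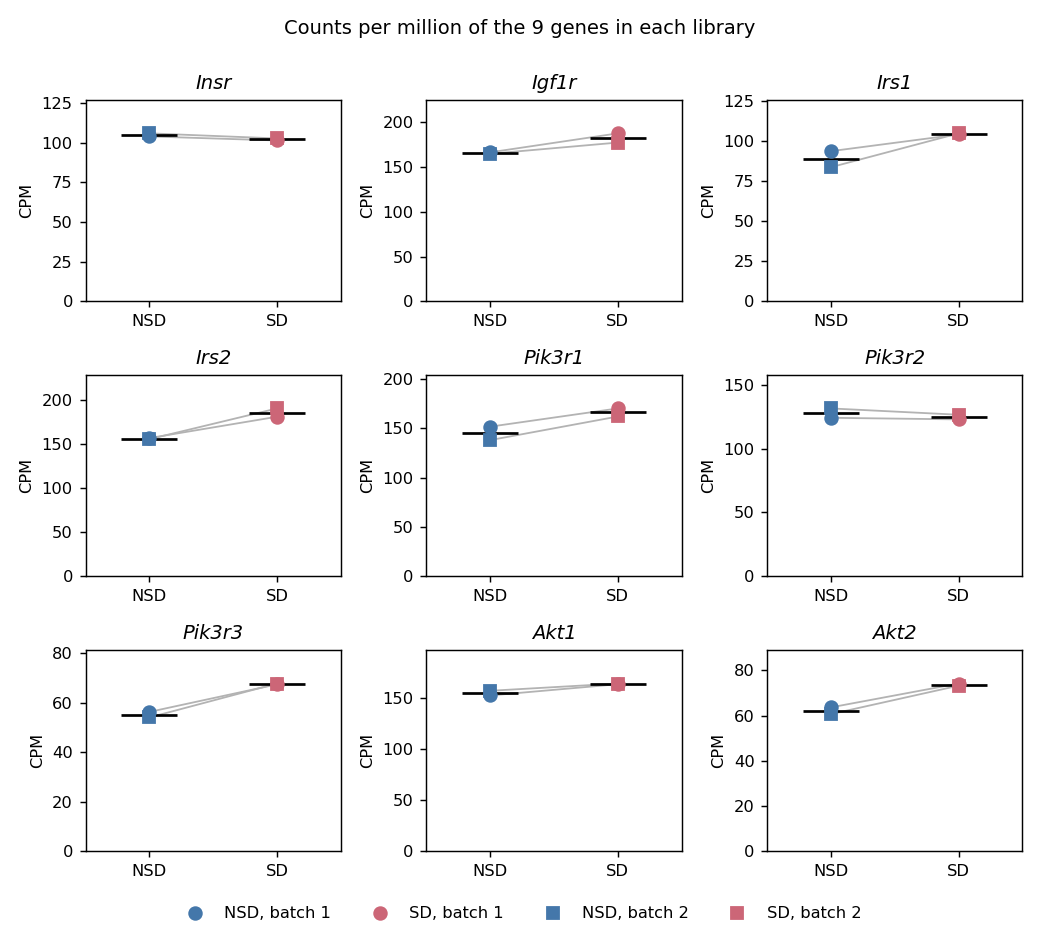
CPM (TMM-scaled) of each member in the 2 NSD and 2 SD libraries, with circles for batch 1, squares for batch 2, a grey line joining the libraries of a batch and a black bar at the group mean. The SD points lie above the NSD points in 7 panels, below them in the Insr panel and among them in the Pik3r2 panel.

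Of the receptors, Igf1r was higher in both SD libraries and Insr slightly lower, and neither passed the test. Insr, the insulin receptor (ENSMUSG00000005534), was at 103.9 and 105.9 CPM in NSD and at 101.4 and 102.7 CPM in SD. The 4 values lie close together, with the SD pair just below the NSD pair. The log2 fold change was -0.04 (SE 0.064), with a 95% confidence interval from -0.19 to 0.11 and an edgeR adjusted p of 0.813. Igf1r, the receptor for IGF1 (ENSMUSG00000005533), was at 166.6 and 165.0 CPM in NSD and at 187.9 and 177.6 CPM in SD. Its NSD libraries were close together at 165.8 ± 1.14 (standard deviation, s.d., n = 2), and both SD libraries lay above them at 182.7 ± 7.29. The log2 fold change of 0.14 (SE 0.072) had an interval from -0.02 to 0.30 and an edgeR adjusted p of 0.345.

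Both receptor substrates were higher in each SD library than in either NSD library. Irs1 (ENSMUSG00000055980) was at 93.7 and 83.7 CPM in NSD and at 104.2 and 104.9 CPM in SD. The SD libraries were nearly equal, and the distance to them depended on the NSD library, with a log2 difference of 0.15 in batch 1 and 0.32 in batch 2. The fit gave 0.24 (SE 0.074, interval 0.07 to 0.41, edgeR adjusted p = 0.124), and 0.16 without NSD library 2 against 0.35 without NSD library 1. Irs2 (ENSMUSG00000038894), which like Irs1 docks PI3K and Grb2, was at 157.2 and 155.9 CPM in NSD and at 181.5 and 190.9 CPM in SD. Its NSD libraries differed by little, at 156.6 ± 0.89 (s.d., n = 2), and the gap to the SD mean of 186.2 ± 6.68 was several times either spread. The log2 fold change was 0.25 (SE 0.071, interval 0.09 to 0.41), with an edgeR adjusted p of 0.0961. DESeq2, the study's tool, gave Irs2 a fold change of 1.21 and an adjusted p of 0.00451 on the same counts and called it, and left Irs1 under the fold threshold at 1.196 with an adjusted p of 0.0357.

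Of the PI3K regulatory subunits, Pik3r3 and Pik3r1 had each SD library above each NSD library, and Pik3r2 had groups that overlapped. None passed the edgeR test without the block. Pik3r1 (ENSMUSG00000041417) encodes the alpha subunit, the form through which most receptors are known to recruit PI3K. It was at 151.7 and 138.1 CPM in NSD and at 170.2 and 162.0 CPM in SD. The groups did not overlap, at 144.9 ± 9.64 CPM in NSD and 166.1 ± 5.78 CPM in SD (s.d., n = 2). The log2 fold change of 0.20 (SE 0.077, interval 0.02 to 0.37) had an edgeR adjusted p of 0.209, with 0.13 when NSD library 2 was left out and 0.30 when NSD library 1 was. Pik3r2 (ENSMUSG00000031834), the beta subunit, was at 124.1 and 131.4 CPM in NSD and at 122.8 and 126.5 CPM in SD. It is the only member whose groups overlapped. Its log2 fold change was -0.04 (SE 0.069, interval -0.19 to 0.12, edgeR adjusted p = 0.853), and the sign turned to 0.0074 without NSD library 2.

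Pik3r3 (ENSMUSG00000028698), the gamma subunit and a shorter form that is known from brain, had the lowest p of the 9. It was at 56.4 and 54.1 CPM in NSD and at 67.5 and 67.8 CPM in SD. The libraries of each group lay close together, at 55.2 ± 1.58 CPM in NSD and 67.7 ± 0.24 CPM in SD (s.d., n = 2), and the gap between the groups was many times these spreads. On the log2 scale the change was 0.29 (SE 0.065, interval 0.15 to 0.44), a fold change of 1.22, and it was 0.26 in batch 1 and 0.33 in batch 2. The edgeR adjusted p of 0.0516 is just over the threshold. In the same test with the batch as a block the adjusted p was 0.00408 and Pik3r3 was called higher, as it was by DESeq2 (adjusted p = 0.00202). In the GENCODE annotation 22.7% of its exon bases are shared on the same strand with Gm49337, a protein-coding gene with no count here. Reads of these genes may have been split between them, which could not be checked.

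Akt1 and Akt2 encode isoforms of the kinase that receives the signal of PI3K, and both were higher in each SD library. Akt1 (ENSMUSG00000001729) was at 152.7 and 157.2 CPM in NSD and at 163.7 and 164.4 CPM in SD. The SD libraries lay above the NSD libraries by a narrow margin, with a log2 fold change of 0.08 (SE 0.069, interval -0.07 to 0.24) and an edgeR adjusted p of 0.600. Akt2 (ENSMUSG00000004056), the isoform best known for insulin-stimulated glucose uptake, was at 63.6 and 60.7 CPM in NSD and at 74.2 and 73.2 CPM in SD. The groups were at 62.1 ± 2.11 and 73.7 ± 0.67 CPM (s.d., n = 2), well apart. Its log2 fold change was 0.25 (SE 0.065, interval 0.10 to 0.39), a fold change of 1.19, with an edgeR adjusted p of 0.0815. With the batch block the adjusted p was 0.00992 but the fold change of 1.19 stayed under the threshold, while DESeq2, with a fold change of 1.204 and an adjusted p of 0.0119, called Akt2 higher. Exons of Akt1 overlap those of Siva1 over 3340 bases on the other strand, and the count of Siva1 was 1.14% of that of Akt1.

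**Figure D2:**
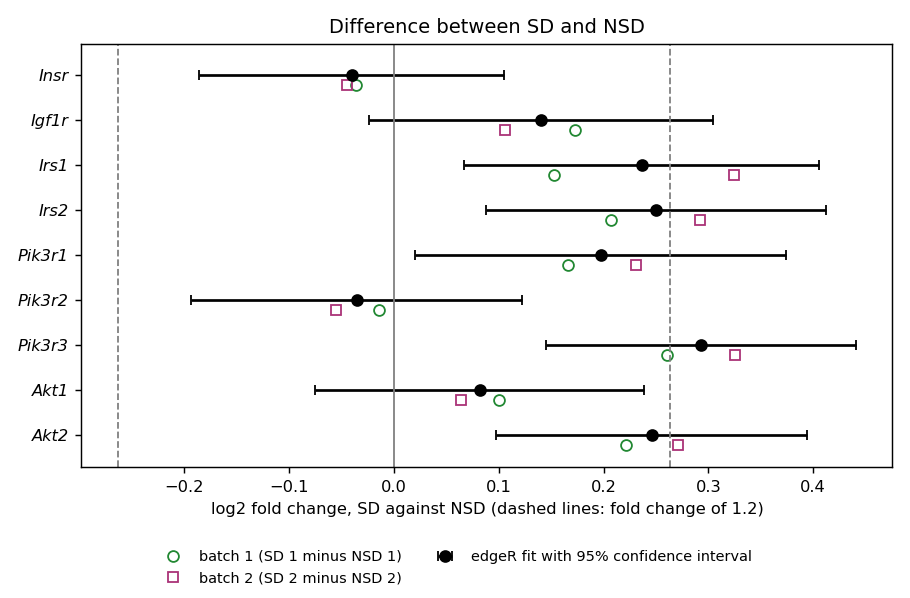
Log2 fold change of SD against NSD for each member, with the edgeR estimate and its 95% confidence interval as a black point and bar, and the difference within each batch as open symbols. Dashed lines mark a fold change of 1.2 in either direction. Pik3r3 has the highest estimate at 0.29, and Insr and Pik3r2 lie at -0.04, with intervals that include 0.

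Over the 9 members edgeR called 0 higher and 0 lower, where it called 0.77% of the 22338 genes tested higher and 2.33% lower. At an unadjusted p under 0.05 there were 5 (Irs1, Irs2, Pik3r1, Pik3r3 and Akt2), all higher in SD, against 6.86% of all genes tested and 8.86% of the protein-coding genes in that direction (12.2% of all genes in the other). With the batch block 1 member was called higher, where 2.99% of all genes were called higher and 8.47% lower, and DESeq2 called 3 higher (Irs2, Pik3r3 and Akt2), where it called 2.99% of genes higher and 5.79% lower. Without the fold threshold the block fit had 5 members at an adjusted p under 0.05 (Irs1, Irs2, Pik3r1, Pik3r3 and Akt2), where 4.95% of all genes were at that level and higher and 8.87% at that level and lower. The SD libraries lay above the NSD libraries in 7 of 9 members, against 22% of all genes and 26.5% of the protein-coding genes, and below them in Insr alone, against 27.5% and 20% of these genes. The median difference on the log2 scale was 0.20 over the members, -0.02 over all genes tested and 0.02 over the protein-coding genes. Summed over the members, 1070 and 1052 CPM in NSD stood beside 1173 and 1170 CPM in SD. The within-batch difference, drawn in the plot of log2 fold changes, had the same sign in both batches for each member. In all members but Pik3r2 the order of the libraries, given above, already fixes this, so it adds nothing for them.

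Levels were compared between members only per length, as CPM per kilobase of the gene's exon bases in the GENCODE annotation. On this scale Irs2 was highest at 23.3 ± 2.38 (s.d. over the 4 libraries), followed by Akt1 at 20.4 ± 0.71, Pik3r2 at 20.1 ± 0.60 and Pik3r1 at 14.5 ± 1.29. Pik3r3 at 10.8 ± 1.27, Irs1 at 10.3 ± 1.07, Igf1r at 8.82 ± 0.54, Insr at 7.51 ± 0.14 and Akt2 at 5.24 ± 0.52 came after. The ranges over libraries overlapped between Akt1 and Pik3r2, between Pik3r3 and Irs1 and between Irs1 and Igf1r. The order of Akt1 and Pik3r2 changed from library to library, as did that of Pik3r3 and Irs1, so these orders are not settled. Irs1 was above Igf1r within every library on this scale. The whole group was well expressed, since 92.4% of 15533 protein-coding genes had a lower level than Irs2 and 69.0% a lower level than Akt2. The order depended on the length used, and only 2 of the 9 members kept their rank with the longest transcript, with the canonical transcript or with the coding length. With each of these lengths Akt1 had the highest mean over the libraries, though its range overlapped that of Pik3r2 with the longest transcript. Akt1 and Pik3r2 were among the upper 3 means with all 4 lengths. The plot of level per length sets the 4 scales side by side.

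**Figure D3:**
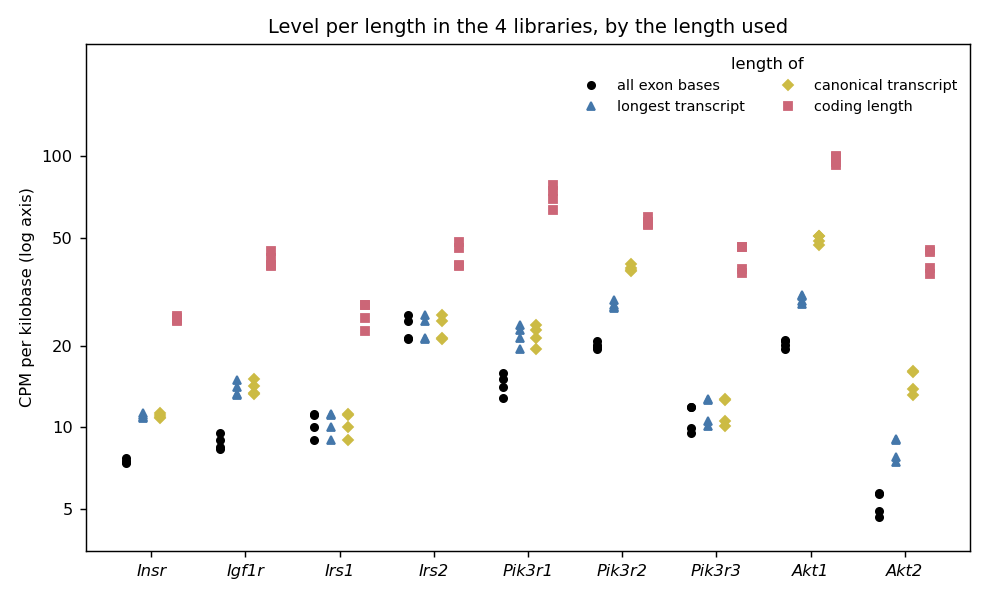
CPM per kilobase of each member in the 4 libraries on a log axis, with the length taken as all exon bases (black circles), the longest transcript (blue triangles), the canonical transcript (yellow diamonds) or the coding length (red squares). Irs2 is highest with all exon bases at 23.3 on average, and Akt1 has the highest mean with the other lengths, overlapping Pik3r2 with the longest transcript.

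The levels of family members were also set against each other within each library. Per kilobase of exon, Irs2 stood at 2.13 and 2.36 times Irs1 in NSD and at 2.21 and 2.31 times in SD. The groups overlapped, with a change of 0.01 in the log2 ratio (exact two-sided permutation test p = 1). Igf1r stood at 1.12 and 1.09 times Insr in NSD and at 1.29 and 1.21 times in SD. The change of the log2 ratio was 0.18, and the SD libraries lay above the NSD libraries. Akt1 stood at 3.97 and 4.29 times Akt2 in NSD and at 3.65 and 3.71 times in SD. The log2 ratio changed by -0.16, and by -0.11 without NSD library 2. The mean ratio over the libraries was 3.90 with all exon bases but 2.36 with the coding length.

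Of the 6 pairs compared, Pik3r3 and Pik3r2 differed most between the groups. Per kilobase of exon, Pik3r3 made up 22.7% and 22.01% of the 3 subunits' summed level in NSD and 25.1% and 25.3% in SD. Pik3r2 made up 45.1% and 48.3% in NSD and 41.3% and 42.7% in SD. The share of Pik3r2 was thus lower, and that of Pik3r3 higher, in each SD library. Pik3r3 stood at 0.503 and 0.456 times Pik3r2 in NSD and at 0.608 and 0.594 times in SD, a change of 0.33 in the log2 ratio. The mean of this ratio was 0.536 with all exon bases, 0.297 with the canonical transcript and 0.731 with the coding length, and with the canonical transcript the share of Pik3r3 was 15.1% and 14.5% in NSD and 17.1% and 17.2% in SD. Pik3r2 stood at 1.40 and 1.62 times Pik3r1 in NSD and at 1.23 and 1.33 times in SD, a change of -0.23 that was -0.12 without NSD library 2, and with the coding length its mean ratio to Pik3r1 was under 1, at 0.802. Pik3r3 stood at 0.702 and 0.741 times Pik3r1 in NSD and at 0.749 and 0.791 times in SD, a change of 0.09 that was 0.06 without NSD library 1 and 0.06 without SD library 2. A change of a ratio does not depend on the length used. Of the 6 pairs compared, the 5 other than Irs2 and Irs1 had groups that did not overlap. Each gave an exact two-sided permutation p of 0.333, the smallest that 2 against 2 libraries allow, and 0.4 after adjustment over the pairs. The pairs of PI3K subunits share genes, and how often the ratios of other gene pairs separate was not counted. The count of separated pairs is therefore a description only.

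The other genes of the pathway were read from a list of 103, of which 99 were tested. Of these edgeR called 3 higher in SD (0.77% of all genes tested) and 0 lower (2.33%), with 17 higher and 2 lower (Shc1 and Rps6kb2, the former named after its value was seen) at an unadjusted p under 0.05 (6.86% of all genes higher and 12.2% lower). With the batch block 10 were called higher and 1 lower (2.99% and 8.47% of all genes), and DESeq2 called 15 higher and 1 lower (2.99% and 5.79%). The 3 higher calls became 0 with filterByExpr, 1 without a count filter, 1 with protein-coding genes only and 6 without SD library 1 or without SD library 2. Over the 99 the median was 0.06 on the log2 scale, and 67 were above 0, as were 47.2% of all genes tested and 54.2% of the protein-coding genes. Among ligands and binding proteins 8 of 12 were tested, and none was called by edgeR. Ins2 (0, 8, 4 and 0 counts) and Igfals (4 to 11 counts) were too low to test, and Ins1 and Igfbp1 were not analysed here. Ins2 and Igfals were named after their values were seen. Igfbp5, which binds IGFs outside the cell, was at 193.3 and 219.4 CPM in NSD and at 261.8 and 275.5 CPM in SD, and was called with the block (adjusted p = 0.0019, 0.0568 by edgeR without it).

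Among 19 other receptors and adaptors 0 were called by edgeR (0.77% of all genes higher and 2.33% lower), with 3 at an unadjusted p under 0.05 (6.86% and 12.2%), of which Shc1 was lower. Shc3, a neuronal adaptor of receptor tyrosine kinases, was called with the block (log2 fold change 0.31, adjusted p = 0.00495). Of the 11 PI3K catalytic and remaining regulatory genes none was called by edgeR, with the block or by DESeq2. These fits called 0.77%, 2.99% and 2.99% of all genes higher and 2.33%, 8.47% and 5.79% lower. At an unadjusted p under 0.05 in edgeR were 6.86% of all genes higher and 12.2% lower, and 0 of the 11. Their median was 0.04, their range -0.17 to 0.25, and 4 of the 11 had both SD libraries above both NSD libraries, where 22% of all genes and 26.5% of the protein-coding genes did. In the list of kinases and mTOR complex genes around Akt, 10 in all, edgeR called 1 higher (0.77% of all genes). The block fit and DESeq2 called 1 each as well (2.99% each). The edgeR call was Deptor, an inhibitory partner of mTOR, at 37.8 and 34.6 CPM in NSD and 45.6 and 45.9 CPM in SD (log2 fold change 0.34, edgeR adjusted p = 0.0482). The call of Deptor was lost with protein-coding genes only (adjusted p = 0.104), without a count filter (0.0619) and with filterByExpr (0.0728).

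Of the 27 inhibitors and phosphatases edgeR called 1 higher (0.77% of all genes), the block fit 5 (2.99%) and DESeq2 8 (2.99%). DESeq2's calls included Ptpn1 and Socs5, which are named below. Of the 27, 17 were above 0, against 54.2% of the protein-coding genes. Trib1, a pseudokinase of the Tribbles family whose members are known to bind Akt or mark proteins for degradation, was at 15.1 and 15.6 CPM in NSD and at 22.9 and 23.1 CPM in SD. Its libraries were almost equal within groups, with a log2 fold change of 0.58 (SE 0.079, edgeR adjusted p = 0.0328), a call that was lost with filterByExpr (adjusted p = 0.0628). With the block Trib2 (0.42), Socs4 (0.37), Socs7 (0.34) and Ptprf (0.31) were called as well. Socs4 and Socs7 belong to the suppressors of cytokine signaling, and Ptprf is a receptor phosphatase known to act on the insulin receptor.

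Of the 24 Akt targets and genes downstream, edgeR called 1 higher (0.77% of all genes), the block fit 2 (2.99%) and DESeq2 4 (2.99%). The block fit and DESeq2 each called 1 lower (8.47% and 5.79%). The edgeR call was Eif4ebp2, which restrains cap-dependent translation until mTOR phosphorylates it. Its level was 82.5 and 75.4 CPM in NSD and 101.2 and 99.8 CPM in SD (log2 fold change 0.35, edgeR adjusted p = 0.0424). The call of Eif4ebp2 was lost under the same alternatives as that of Deptor, at adjusted p-values of 0.0746, 0.0554 and 0.0659 in edgeR. The block fit added Foxo4, a transcription factor that Akt keeps out of the nucleus (0.32, adjusted p = 0.0171). It also called Rps6kb2, an S6 kinase, lower, from 8.99 and 6.17 CPM in NSD to 5.20 and 3.82 CPM in SD (log2 fold change -0.75, block adjusted p = 0.00135, edgeR adjusted p = 0.0982 without the block). The plot of the pathway by role sets these groups beside the 9 members.

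**Figure D4:**
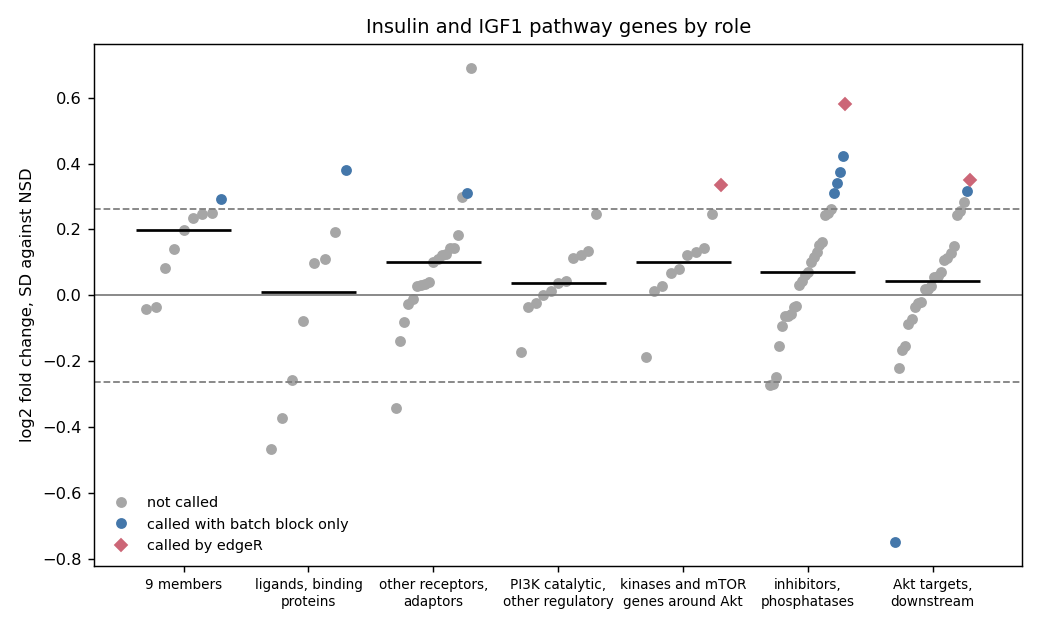
Log2 fold change of SD against NSD for the 9 members and for the tested pathway genes in 6 roles, each point a gene and each black bar the median of its column. Red diamonds were called by edgeR without the block, blue points only with the batch block, and dashed lines mark a fold change of 1.2. The medians of the 6 roles lie between 0.01 and 0.10, and that of the members at 0.20.

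Across the 4 libraries each member was matched to the pathway gene nearest in its centred log2 CPM, out of 93 candidates with a mean over 1 CPM. The nearest of all was Ptpn1, a phosphatase of the insulin receptor, to Irs2, with a root mean square difference of 0.0052. Ptpn1 stood at 65.3 CPM in each NSD library and at 75.4 and 79.8 CPM in SD, so that it had close NSD libraries and the higher value in SD library 2, as Irs2 did. Igf1r was nearest to Akt1s1 (0.0173), a substrate of Akt in an mTOR complex, Akt1 to the catalytic subunit gene Pik3ca (0.0189) and Pik3r3 to Foxo4 (0.0202). Pik3r1 (0.0216) and Irs1 (0.0416) were both nearest to Socs6, which with them had its lowest value in NSD library 2. Insr was nearest to Pik3c3 (0.0237), Akt2 to Socs5 (0.0247) and Pik3r2 to Ptpra (0.0344). These are distances over 4 libraries that share 2 batches, given as a description.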

How the data were processed

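The authors immunoprecipitated HA-tagged ribosomes, prepared stranded total RNA libraries, aligned the reads with STAR to mm39 (GRCm39) and assigned them to Ensembl genes in Partek Flow, whose expectation-maximization model shares reads between genes. Whether counting used the strand is not given in the sources used here. The values deposited by the authors are estimated counts, not normalized, and 55.6% of the genes have a value that is not whole. The authors tested with DESeq2, and the terms of their model are not given in the sources used here.

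Here counts were rounded, genes at 5 counts or fewer in any library were dropped, and the remaining 22338 went into the quasi-likelihood test of edgeR 4.0.16 (R 4.3.3) with TMM scaling, fitted on condition alone, with p-values adjusted by Benjamini-Hochberg. A call needed a fold change over 1.2 and an adjusted p under 0.05. DESeq2 1.42.0, a batch block, other filters and scalings and leaving out each library were alternatives. A prior count of 2 entered the log2 value of each library. The labels' batch number equals the replicate number and pairs an NSD with an SD library. Deviations of the paired libraries from their groups were weakly correlated (r = 0.178 across genes). Replicates are separate pools of mice, and p-values measure the spread between pools. The members, the pathway and marker lists and the settings were chosen with earlier results of these data known. Named genes are the members, pathway genes called with or without the block, each member's nearest pathway gene, overlapping genes, and Fos, Arc and Rpl22 as checks. Outside this rule the text names Shc1 and the 4 ligand and binding protein genes that were not tested. For 14922 of the 27962 genes found in the GENCODE annotation the deposited stop is 1 past the annotated end, and for 410 equal to it, so 1 was taken off each stop. Results for some genes are not reported here.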

Additional observations from a re-analysis of the deposited data

How the results depend on the processing

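Of the members, 0 were called higher by edgeR, 1 with the replicate block, 3 by DESeq2, 1 with DESeq2's size factors in edgeR and 1 with the block on protein-coding genes only, an alternative added after the data had been seen. None was called lower under any alternative, and none was called higher without a count filter, with filterByExpr, with protein-coding genes only or with any library left out. With the replicate block 5 members were at an adjusted p under 0.05, where 0 were without it, and of these Pik3r3 alone also passed the fold threshold. Pathway genes called higher went from 3 to 10 with the block, 15 by DESeq2, 6 with DESeq2's size factors, 1 without a count filter, 0 with filterByExpr, 1 with protein-coding genes only and 10 with the block on these, and ran from 3 to 6 with each library left out, at 6 without SD library 1 and 6 without SD library 2. Those called lower went from 0 to 1 with the block, 1 by DESeq2 and 1 with the block on protein-coding genes only, and ran from 0 to 1 with each library left out. Over all genes these settings called 1 to 669 higher and 0 to 1953 lower. The cause of these shifts was not tested.

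Leaving out a library leaves a group with 1 library, which is assumed to vary like the others. Without NSD library 2 the log2 fold change of Pik3r2 turned to 0.0074 (and was -0.047 without NSD library 1), and the change of the Irs2 to Irs1 ratio, 0.01, turned to -0.065 without NSD library 1 and -0.02 without SD library 2, and was 0.087 without NSD library 2. No other member's log2 fold change turned in sign. The log2 ratios moved with the length used by construction. With the coding length Igf1r to Insr went from 0.23 to 0.72, Irs2 to Irs1 from 1.17 to 0.73, Pik3r2 to Pik3r1 from 0.47 to -0.32, Pik3r3 to Pik3r1 from -0.42 to -0.77, Pik3r3 to Pik3r2 from -0.90 to -0.45 and Akt1 to Akt2 from 1.96 to 1.24. With the longest transcript Pik3r3 to Pik3r1 was -0.93, Pik3r3 to Pik3r2 -1.30 and Akt1 to Akt2 1.85. With the canonical transcript, added after the data had been seen, Pik3r2 to Pik3r1 was 0.83, Pik3r3 to Pik3r1 -0.93, Pik3r3 to Pik3r2 -1.75 and Akt1 to Akt2 1.75. With each of these lengths 2 of the 9 members kept their rank. With 2 libraries per group, small differences such as that of Akt1 are not settled. The counting error takes reads as independent molecules.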

Other observations

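Rpl22, the ribosomal protein gene of which the viral vector carries a tagged copy, was at 628.5 and 1045 CPM in NSD and at 610.2 and 809.5 CPM in SD. Reads of the mouse's own gene and of that copy were not told apart. The Rpl22 value was higher in batch 2 than in batch 1 in both groups, and its groups overlapped. In 6 of the 9 members the deviations from the group mean had the same sign in both libraries of a batch. Signs with no tie to the batch would agree about as often as not, and the share over all genes was not counted.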
